A study of Elodea nuttallii and Chlamydomonas reinhardtii with 18 samples.

Results

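The circadian clock transcripts of Elodea nuttallii, a submerged waterweed, were described across shoots held for 2 h at 3 sites of the River Olt. A transcript was taken where its text in the authors' deposited tables of changed transcripts matched one of 8 clock words (lhy, pseudo-response, response regulator-like aprr, early flowering 3, gigantea, adagio, circadian or cct motif). This gave 54 transcripts of 25 assembled loci, out of 58110 transcripts of 37036 loci. In 30 transcripts of 9 loci the word stood in the description itself, and in 24 transcripts of 16 loci only in the annotation terms that follow it. No description named gigantea. The tables hold only what the authors called changed between the same libraries, so the differences of the 54 transcripts between sites are given as a description. No p is given for them, and the counts that passed a threshold support nothing.

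In Arabidopsis, the plant in which these roles are best known, the clock is a loop of repressors that are made at different times of day. LATE ELONGATED HYPOCOTYL (LHY) is a Myb factor that peaks around dawn and represses evening genes. The pseudo-response regulators (PRR, also APRR) follow through the day and repress LHY, EARLY FLOWERING 3 (ELF3) is part of an evening repressor complex, and ADAGIO proteins are blue-light receptors that send clock proteins to degradation. The CCT motif is a domain shared by CONSTANS, CONSTANS-like and pseudo-response regulator proteins.

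Each library was made from the top 10 cm of shoots with the apex, from plants collected at a clean site and then placed in the river for 2 h at Valcea or at either of the Babeni sites, numbered 1 and 2. Each site has 3 libraries. The title of the series names mercury, but neither a mercury level nor the time of day of exposure or sampling is given in the sources used here. Whether the 3 libraries of 1 site stem from different plants is not in the labels, so their spread may be technical. Shoots are bulk tissue, in which fewer cells of a type and less RNA per cell cannot be told apart.

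Values are normalised read counts in CPM as the authors scaled them, with mean ± SD over n = 3 libraries per site. Log2 differences are of log2(CPM + 0.5), with the standard error (SE) of a limma fit over all transcripts, and this scale understates differences of low transcripts. Recovered depth was 2875062 to 7824727 reads per library, lowest in Valcea replicate 1 and highest at Babeni site 2. Valcea replicate 3 stood apart from the other libraries of its site, with a chi-square per transcript of 9.09 and 8.98 against replicates 1 and 2, which differed from each other by 2.00. Descriptions were available only for transcripts that the authors listed as changed between these libraries. The markers below were therefore chosen on such changes and are no unselected measure of tissue content. Of 64 transcripts described as antenna, photosystem or small Rubisco subunit proteins, which mark photosynthetic tissue, 60 were detected in all 9 libraries. Their summed level was 10293 to 14173 CPM at Valcea, but 6707 to 7223 CPM at Babeni site 1 and 3500 to 4481 CPM at site 2. Of this sum 7 transcripts of Locus_27, described as photosystem ii 22 kda, made up 7107 to 9403 CPM at Valcea, 3207 to 3382 CPM at Babeni site 1 and 1452 to 1795 CPM at site 2. The other 57 summed to 3186 to 4957 CPM at Valcea and 3500 to 3943 CPM at Babeni site 1, which overlapped, and to 2047 to 2686 CPM at Babeni site 2, and 34 of the 57 had a higher mean at Babeni site 1 than at Valcea. Among these listed transcripts 1 marker of another organism was found, a fucoxanthin chlorophyll protein of the kind found in diatoms and brown algae. It stood at 19.6 to 21.8 CPM at Valcea, but 8.59 to 11.2 CPM at Babeni site 1 and 6.90 to 8.66 CPM at site 2. Transcripts of other organisms that were not listed as changed could not be searched. The part of these levels in the differences of the clock transcripts was not tested.

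Over all 54 transcripts, the most frequent order of site means had Valcea lowest, Babeni site 1 between and Babeni site 2 highest. In 26 transcripts the mean was highest at Babeni site 2 and lowest at Valcea, and in 13 it was highest at Valcea and lowest at Babeni site 2. In 39 transcripts the Babeni site 1 mean thus lay between those of the other sites. The authors listed 43 of the 54 as changed between Babeni site 2 and Valcea. The choice of transcripts therefore favours these sites as the extremes, and the counts of orders are a description only. The remaining orders were Valcea highest and Babeni site 1 lowest in 8, Babeni site 1 highest and Babeni site 2 lowest in 3, Babeni site 1 highest and Valcea lowest in 2, and Babeni site 2 highest and Babeni site 1 lowest in 2. The libraries of all 3 sites were fully apart in 15 transcripts, where 6.24% of all tested transcripts were so, and in 6 both neighbours in the order overlapped. Levels were low: 40 of the 54 averaged under 5 CPM over the 9 libraries, and 25 had 3 reads or fewer in at least 1 library.

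At Babeni site 2, 28 of the 54 transcripts lay above Valcea and 22 below it in every library, where 18.4% and 17.5% of all 56752 tested transcripts did so. Limma called 27 of them higher (6.00% of all) and 12 lower (6.09% of all, and 12.1% in either direction). A call meant at least 2-fold with p, adjusted by Benjamini-Hochberg over all transcripts, below 0.05. Between Babeni site 2 and Babeni site 1, 23 lay above and 14 below (12.1% and 11.8% of all). In this comparison 8 were called higher (1.55% of all) and 5 lower (1.63% of all, and 3.18% in either direction). Leaving out Babeni site 2 replicate 1 reduced the 8 to 5. Of the Babeni site 1 libraries, leaving out replicate 1, 2 or 3 turned the 5 into 1, 2 or 3 in that order, and of the Babeni site 2 libraries into 1, 3 or 2. Between Babeni site 1 and Valcea, 14 lay above and 15 below (15.4% and 15.6% of all). There, 6 were called higher (4.17% of all) and 6 lower (4.90% of all, and 9.08% in either direction), and without Valcea replicate 3 the 6 called higher became 10. The rule used all of these contrasts, so nothing is read from the counts.

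**Figure D1:**
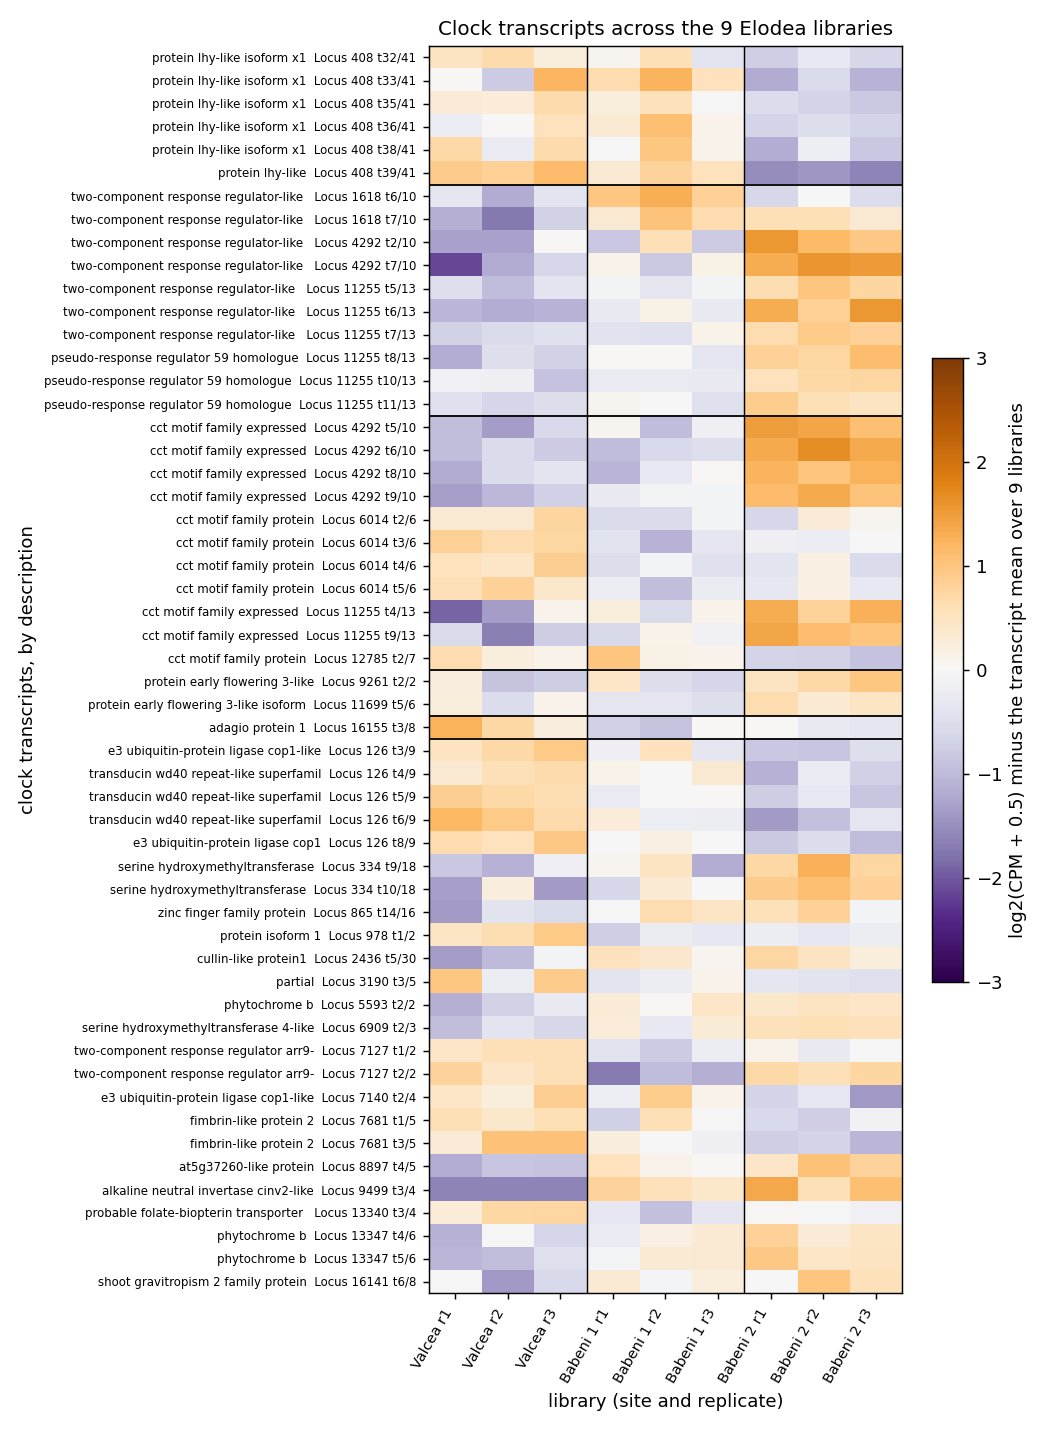
Each row is 1 of the 54 clock transcripts, grouped by description, and each column 1 of the 9 libraries; colour is log2(CPM + 0.5) minus the transcript's mean over the libraries. LHY-like rows are violet at Babeni site 2, most deeply the lead transcript, while most pseudo-response regulator rows and the CCT motif rows of Locus_4292 and Locus_11255 are orange there.

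LHY, the morning repressor, stood lowest at Babeni site 2, in the lead transcript and in the sum over its locus. Of its 6 transcripts, all of 1 locus, 4 lay below Valcea in every Babeni site 2 library (17.5% of all tested transcripts did). Below Babeni site 1 lay 5 of them (11.8% of all). Locus_408_Transcript_39_41_, described as protein lhy-like, had 87.0, 81.6 and 101.6 CPM at Valcea, 58.4, 80.0 and 66.0 at Babeni site 1 and 15.9, 16.9 and 14.9 at Babeni site 2. The libraries of the 3 sites did not overlap, although the highest of Babeni site 1 came close to the lowest of Valcea. The site means were 90.1 ± 10.3, 68.1 ± 10.9 and 15.9 ± 1.01 CPM in that order. The log2 difference was -2.46 ± 0.14 for Babeni site 2 over Valcea, -2.06 ± 0.14 for Babeni site 2 over site 1 and -0.41 ± 0.14 for Babeni site 1 over Valcea. The authors' deposited table gives a log2 fold change of -2.50 for Babeni site 2 over Valcea.

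The other 5 LHY-like transcripts come from the same locus, at 3394 to 3722 bases, and were far rarer. Locus_408_Transcript_38_41_ had 6.35, 3.08 and 6.21 CPM at Valcea, 3.64, 7.82 and 4.08 at Babeni site 1 and 1.40, 3.25 and 1.88 at Babeni site 2, so that Valcea overlapped both Babeni sites, which were apart. Locus_408_Transcript_33_41_ had 1.19, 0.473 and 3.39 CPM at Valcea, 2.11, 3.43 and 1.93 at Babeni site 1 and 0.234, 0.626 and 0.289 at Babeni site 2. Its Babeni libraries were apart, while Valcea overlapped both. Over the 6 transcripts the log2 differences ran from -2.46 to -0.72 for Babeni site 2 over Valcea and from -0.41 to 0.65 for Babeni site 1 over Valcea, so the sign was shared in the former and mixed in the latter. Transcripts of a locus share sequence, and how the reads were divided between them is uncertain, so sums per locus were also taken. The LHY locus summed to 104.7 ± 14.7 CPM at Valcea, against 84.1 ± 16.4 at Babeni site 1 and 21.7 ± 2.64 at Babeni site 2. In the sum Valcea and Babeni site 1 overlapped, and Babeni site 2 remained apart from both. The lead transcript made up 86.2 ± 2.24% of the sum at Valcea, but 81.3 ± 2.92% at Babeni site 1 and only 73.5 ± 5.02% at Babeni site 2.

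The pseudo-response regulators, daytime repressors of LHY in Arabidopsis, stood lowest at Valcea, and their loci differed in how the Babeni sites ranked. Of 10 such transcripts of 3 loci, 9 lay above Valcea in every Babeni site 2 library (18.4% of all tested transcripts did). In every Babeni site 1 library 6 did (15.4% of all). Transcripts of a locus share reads, and all were chosen as changed between these libraries, so nothing is read from these counts. Locus_1618_Transcript_7_10_, described as aprr5-like, had 8.74, 5.68 and 12.0 CPM at Valcea, 25.3, 41.0 and 31.2 at Babeni site 1 and 30.4, 30.0 and 25.4 at Babeni site 2. Every Babeni library lay above every Valcea library, and the Babeni sites overlapped. Its log2 difference was 1.86 ± 0.23 for Babeni site 1 over Valcea, 1.70 ± 0.23 for Babeni site 2 over Valcea and -0.16 ± 0.23 between the Babeni sites.

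A longer aprr5-like transcript of the same locus, Locus_1618_Transcript_6_10_, had 0.397, 0 and 0.376 CPM at Valcea, 1.72, 2.29 and 1.50 at Babeni site 1 and 0.234, 0.626 and 0.289 at Babeni site 2. It stood high at Babeni site 1 alone of the 3 sites, with 7 to 12 reads there and at most 5 elsewhere. The locus summed to 33.3 ± 10.2 CPM at Valcea, against 99.0 ± 20.2 at Babeni site 1 and 90.6 ± 8.89 at Babeni site 2. Most of that sum came from Locus_1618_Transcript_8_10_, which carries no description and stood at 24.1 ± 7.20, 62.4 ± 12.0 and 59.7 ± 6.43 CPM in the same order. Locus_1618_Transcript_5_10_, described as a prr response regulator in words the rule does not hold, had 0.142 ± 0.125, 2.24 ± 0.278 and 1.94 ± 0.579 CPM.

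The other pseudo-response regulator loci ranked Babeni site 2 above Babeni site 1. Locus_11255_Transcript_10_13_, described as a pseudo-response regulator 59 homologue, had 3.57, 3.55 and 1.88 CPM at Valcea, 3.26, 3.24 and 3.22 at Babeni site 1 and 5.97, 6.76 and 6.93 at Babeni site 2. Babeni site 2 was apart from both other sites, which overlapped. Its log2 difference was 1.05 ± 0.25 over Valcea and 0.91 ± 0.25 over Babeni site 1. The 8 clock transcripts of this locus carry 3 different descriptions (pseudo-response regulator 59, aprr3 and cct motif), and their log2 differences ran from 1.05 to 2.33 for Babeni site 2 over Valcea and from 0.14 to 0.98 for Babeni site 1 over Valcea. The locus summed to 10.1 ± 0.774 CPM at Valcea, against 16.6 ± 1.15 at Babeni site 1 and 39.3 ± 2.36 at Babeni site 2, and all sites were apart. The sum therefore separated Valcea from Babeni site 1 where the lead transcript did not.

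Locus_4292 joins the pseudo-response regulator and CCT motif descriptions, with 2 transcripts described as aprr3 and 4 as cct motif family, all of 2152 to 2158 bases. Its lead transcript, Locus_4292_Transcript_9_10_, had 2.78, 3.55 and 4.52 CPM at Valcea, 6.32, 7.25 and 7.31 at Babeni site 1 and 17.5, 20.7 and 16.3 at Babeni site 2. The sites were apart, in the reverse of the order seen for LHY. In log2 terms the difference was 2.20 ± 0.20 for Babeni site 2 over Valcea, 1.32 ± 0.20 for Babeni site 2 over site 1 and 0.88 ± 0.20 for Babeni site 1 over Valcea. Locus_4292_Transcript_7_10_, described as aprr3, had 0, 0.473 and 0.941 CPM at Valcea, 1.92, 0.763 and 1.93 at Babeni site 1 and 5.03, 6.13 and 5.78 at Babeni site 2. Valcea and Babeni site 1 overlapped, and Babeni site 2 lay above both. Over the 6 transcripts the log2 differences ran from 1.88 to 2.79 for Babeni site 2 over Valcea, and the locus summed to 10.4 ± 3.01, 17.9 ± 2.33 and 56.6 ± 3.26 CPM from Valcea to Babeni site 2.

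Of the 11 CCT motif transcripts, 6 lay above and 5 below Valcea in every Babeni site 2 library (18.4% and 17.5% of all tested transcripts). The 5 are those of Locus_6014 and Locus_12785. Locus_6014_Transcript_5_6_ had 10.7, 12.8 and 9.59 CPM at Valcea, 6.13, 3.43 and 6.02 at Babeni site 1 and 5.62, 8.01 and 5.63 at Babeni site 2. Valcea lay above both Babeni sites, which overlapped, and the log2 difference was -1.05 ± 0.24 at Babeni site 1 and -0.75 ± 0.24 at Babeni site 2. All 4 transcripts of this locus belong to the clock set, with log2 differences of -1.35 to -0.89 and of -0.86 to -0.56 over Valcea at the respective sites, and they summed to 30.6 ± 0.941 CPM at Valcea, against 13.8 ± 2.17 at Babeni site 1 and 17.5 ± 3.32 at Babeni site 2.

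Locus_12785_Transcript_2_7_, also described as a cct motif family protein, had 3.97, 2.84 and 2.63 CPM at Valcea, 5.17, 2.67 and 2.58 at Babeni site 1 and 1.29, 1.25 and 1.01 at Babeni site 2. Babeni site 2 lay below the other sites, which overlapped, with a log2 difference of -1.10 ± 0.30 over Valcea. The other 3 transcripts of this locus had log2 differences of 0.13 to 0.44 between these sites, although the mean CPM of Locus_12785_Transcript_5_7_ was 1.36 ± 1.27 at Valcea and 1.30 ± 0.422 at Babeni site 2. The locus sums of 7.29 ± 0.586, 7.42 ± 2.08 and 6.34 ± 1.65 CPM overlapped at all sites.

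Both ELF3-like transcripts, whose Arabidopsis counterpart acts in the evening complex, were highest at Babeni site 2. Locus_9261_Transcript_2_2_ had 1.59, 0.473 and 0.564 CPM at Valcea, 1.92, 0.763 and 0.645 at Babeni site 1 and 1.99, 2.38 and 3.03 at Babeni site 2. Babeni site 2 lay above the rest, though its lowest library was close to Babeni site 1 replicate 1, and Valcea and Babeni site 1 overlapped. Its log2 difference was 1.18 ± 0.38 over Valcea and rests on 2 to 4 reads in each Valcea library. Locus_11699_Transcript_5_6_ had 3.18, 1.66 and 2.82 CPM at Valcea, 1.92, 1.91 and 1.72 at Babeni site 1 and 4.33, 3.38 and 3.75 at Babeni site 2. Babeni site 2 lay above the other sites, which overlapped, by 0.88 ± 0.27 on the log2 scale for Babeni site 2 over site 1 and 0.53 ± 0.27 for Babeni site 2 over Valcea. The sum over its locus overlapped between Babeni site 2 and Valcea, at 11.7 ± 0.849 and 8.21 ± 2.89 CPM.

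The only transcript described as adagio, Locus_16155_Transcript_3_8_, had 6.75, 4.50 and 3.01 CPM at Valcea, 1.34, 1.14 and 2.58 at Babeni site 1 and 2.57, 2.00 and 1.88 at Babeni site 2. Valcea lay above both Babeni sites, which overlapped. The log2 difference over Valcea was -1.26 ± 0.32 at Babeni site 1 and -0.93 ± 0.32 at Babeni site 2. It made up only 8.20 ± 2.86% of its locus at Valcea, and the locus summed to 57.2 ± 3.93 CPM at Valcea, against 37.0 ± 5.50 at Babeni site 1 and 37.6 ± 2.94 at Babeni site 2. The sum stood in the same order as the transcript, with a smaller log2 difference of -0.63 ± 0.13 at Babeni site 1.

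**Figure D2:**
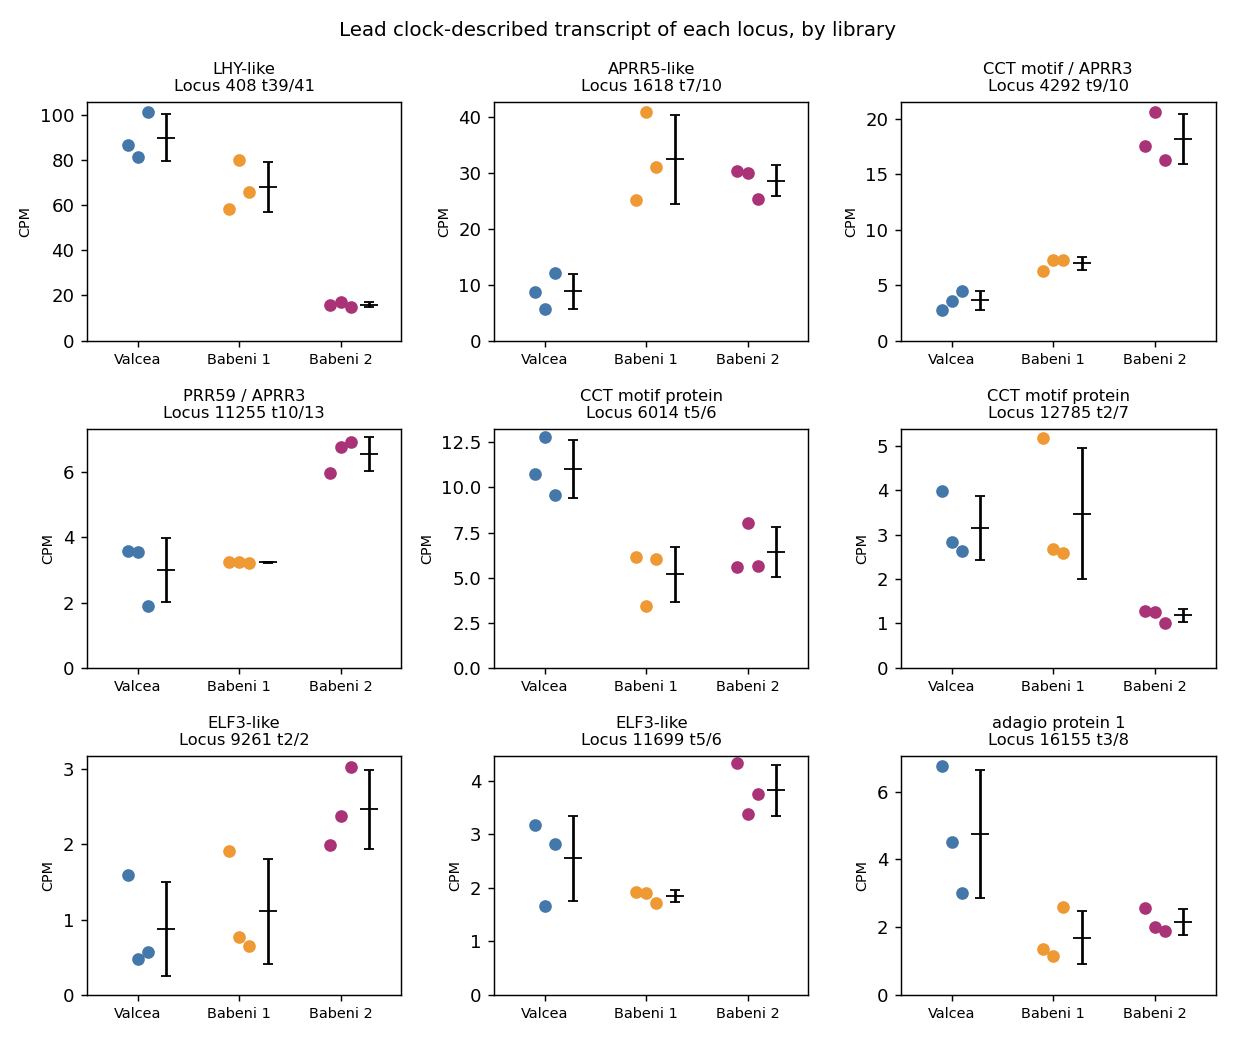
CPM of the lead transcript of the 9 loci with a clock word in the description. The lead is the clock transcript of a locus with the highest mean over the 9 libraries. Transcripts of the locus outside the clock set can be more abundant. Points are libraries, and bars give the mean ± SD of each site. The LHY-like transcript has a mean of 90.1 CPM at Valcea and of 15.9 CPM at Babeni site 2, the aprr5-like transcript is high at both Babeni sites, and the CCT motif transcript of Locus_4292 is highest at Babeni site 2 at 18.2 CPM.

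Beside the 54 transcripts, the 25 loci hold 57 others, of which 48 are in none of the authors' tables. Of these 57, 52 had the same sign as the lead transcript of their locus for Babeni site 2 over Valcea, 49 for Babeni site 1 over Valcea and 39 for Babeni site 2 over site 1. These transcripts share reads with the lead transcripts and are not independent of them. They come unevenly from 21 loci, with 16 in the cullin-like Locus_2436 and 6 each in Locus_334 and the adagio Locus_16155. For Babeni site 2 over Valcea all in those loci had the lead's sign. In Locus_12785 0 of 3 did, in Locus_5593 0 of 1 and in Locus_7681 1 of 2. In the LHY locus the 2 others had log2 differences of -0.92 and -0.39 for Babeni site 2 over Valcea, smaller than the lead transcript's. Summed per locus, 9 of the 25 loci were called higher and 3 lower for Babeni site 2 over Valcea, where 12.5% of all 36309 loci were called. For Babeni site 1 over Valcea 4 were called in each direction (9.25% of all loci), and for Babeni site 2 over site 1 there were 3 called higher and 1 lower (3.43% of all loci). The last 4 are Locus_4292, Locus_11255 and the response regulator Locus_7127, which were higher, and the LHY Locus_408, which was lower. For serine hydroxymethyltransferase, Locus_334, the clock transcripts were 0.310 ± 0.150% of the locus at Valcea and 1.25 ± 0.287% at Babeni site 2. Its lead transcript stood highest at Babeni site 2, with a mean of 3.82 ± 0.401 CPM, while its locus summed to 474.6 ± 48.4 CPM at Valcea, against 706.8 ± 59.3 at Babeni site 1 and 513.7 ± 34.7 at Babeni site 2.

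**Figure D3:**
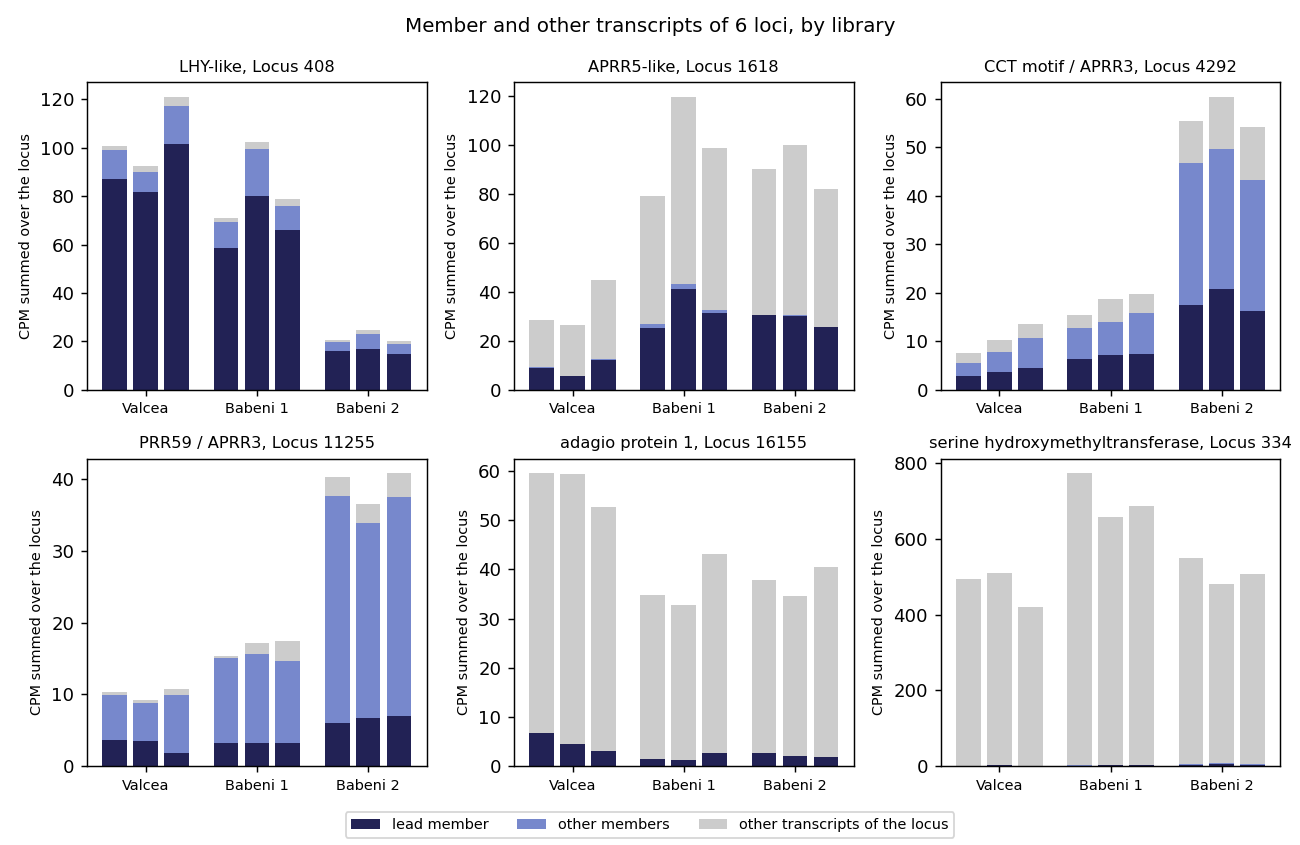
CPM summed over 6 loci in each library, split into the lead clock transcript, the other clock transcripts and the remaining transcripts of the locus. In the LHY locus most of each bar is the lead transcript, and in the adagio and serine hydroxymethyltransferase loci the clock transcripts are a small share.

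The 24 transcripts matched only through annotation terms hold light signalling proteins, a cytokinin response regulator and several proteins with no known place in the clock mechanism. COP1 is a ubiquitin ligase that in Arabidopsis degrades light signalling factors in the dark. Its lead transcript, Locus_126_Transcript_8_9_, had 24.6, 22.7 and 30.3 CPM at Valcea, 15.5, 17.9 and 15.5 at Babeni site 1 and 8.66, 10.6 and 7.65 at Babeni site 2. The sites were apart, in the same order as for LHY, with a log2 difference of -1.48 ± 0.17 for Babeni site 2 over Valcea. Of the 6 transcripts of its locus 5 belong to the clock set, 3 of them described as transducin wd40 repeat-like, and the locus summed to 78.9 ± 5.61, 48.3 ± 3.57 and 29.8 ± 4.44 CPM in that order. A further cop1-like transcript, Locus_7140_Transcript_2_4_, averaged 4.72 ± 1.16, 4.08 ± 1.80 and 1.67 ± 0.760 CPM, and its Valcea and Babeni site 1 libraries overlapped. It made up 41.9 ± 1.67% of its locus at Valcea and 23.4 ± 9.68% at Babeni site 2. The locus summed to 11.4 ± 3.28, 11.8 ± 3.52 and 7.0 ± 0.372 CPM, with a log2 difference of -0.63 ± 0.23 for Babeni site 2 over Valcea, which was not called.

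Phytochrome B, the red light receptor, stood in the opposite order in its lead transcripts. Locus_13347_Transcript_5_6_ had 1.99, 2.13 and 3.20 CPM at Valcea, 4.40, 5.92 and 6.02 at Babeni site 1 and 9.36, 6.38 and 6.64 at Babeni site 2. The sites were apart, with log2 differences over Valcea of 1.03 ± 0.24 at Babeni site 1 and 1.44 ± 0.24 at Babeni site 2. The phytochrome b transcript of another locus, Locus_5593_Transcript_2_2_, averaged 0.745 ± 0.367, 1.86 ± 0.315 and 2.17 ± 0.0742 CPM, and its Babeni sites overlapped. That locus summed to 2.57 ± 0.558, 4.38 ± 0.362 and 3.77 ± 0.433 CPM, highest at Babeni site 1. Its other transcript had a log2 difference of -0.15 for Babeni site 2 over Valcea.

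A transcript described as at5g37260-like, Locus_8897_Transcript_4_5_, had 2.38, 3.08 and 3.01 CPM at Valcea, 8.81, 6.49 and 6.02 at Babeni site 1 and 8.19, 12.8 and 10.5 at Babeni site 2. In Arabidopsis that gene encodes CIRCADIAN 1, a Myb factor of the same family as LHY. Every Babeni library lay above Valcea and the Babeni sites overlapped, with log2 differences over Valcea of 1.18 ± 0.22 at Babeni site 1 and 1.71 ± 0.22 at Babeni site 2. Its Babeni site 2 level was thus above Valcea where that of the LHY-like transcript was below it.

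Of 2 transcripts described as arr9-like, the lead transcript was low at Babeni site 1 alone and the other was lower at both Babeni sites than at Valcea. ARR9 is a type-A response regulator, which dampens cytokinin signalling in Arabidopsis. Locus_7127_Transcript_2_2_ had 19.5, 15.1 and 16.6 CPM at Valcea, 3.06, 5.34 and 4.73 at Babeni site 1 and 18.0, 16.8 and 18.6 at Babeni site 2. Valcea and Babeni site 2 overlapped, and Babeni site 1 lay below both. The log2 differences were -1.87 ± 0.20 for Babeni site 1 over Valcea, 1.94 ± 0.20 for Babeni site 2 over site 1 and 0.07 ± 0.20 for Babeni site 2 over Valcea. The other arr9-like transcript, Locus_7127_Transcript_1_2_, averaged 5.97 ± 0.359, 2.80 ± 0.673 and 3.83 ± 0.540 CPM, with Valcea apart from both Babeni sites, which overlapped.

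The remaining annotation matches have other described functions. The actin-bundling fimbrin-like Locus_7681_Transcript_3_5_ averaged 20.0 ± 5.63, 11.3 ± 1.60 and 6.08 ± 0.906 CPM from Valcea to Babeni site 2, with all sites apart. Its locus summed to 28.2 ± 5.14, 20.4 ± 3.25 and 12.9 ± 1.18 CPM, where Valcea and Babeni site 1 overlapped. The folate-biopterin transporter Locus_13340_Transcript_3_4_ averaged 8.60 ± 1.61, 3.79 ± 0.972 and 5.39 ± 0.340 CPM, and a transcript described only as protein isoform 1, Locus_978_Transcript_1_2_, averaged 12.1 ± 2.13, 5.44 ± 1.09 and 6.22 ± 0.297 CPM. The invertase cinv2-like Locus_9499_Transcript_3_4_ was without reads in the Valcea libraries (3 reads correspond to 0.564 to 1.19 CPM) and had 2.11, 1.72 and 1.50 at Babeni site 1 and 3.39, 1.75 and 2.74 at Babeni site 2. The cullin-like Locus_2436_Transcript_5_30_, of only 165 bases, averaged 2.14 ± 1.26, 4.99 ± 0.842 and 5.64 ± 1.09 CPM. It made up 2.16 ± 0.721% of its locus at Valcea and 4.43 ± 0.666% at Babeni site 2. The locus sums of 93.6 ± 23.5, 123.9 ± 9.02 and 126.9 ± 8.67 CPM overlapped at all sites. Serine hydroxymethyltransferase 4-like (Locus_6909_Transcript_2_3_), a zinc finger protein (Locus_865_Transcript_14_16_), an entry described as partial (Locus_3190_Transcript_3_5_) and shoot gravitropism 2 (Locus_16141_Transcript_6_8_) averaged at most 3.20 CPM at any site. In that order, their log2 differences for Babeni site 2 over Valcea were 1.21 ± 0.29, 1.21 ± 0.39, -0.96 ± 0.36 and 1.19 ± 0.41. Those of their locus sums were 1.03 ± 0.22, 1.25 ± 0.36, -0.81 ± 0.28 and 1.78 ± 0.29. The shoot gravitropism 2 transcript was matched only because the letters lhy occur inside the word acylhydrolase in its terms, and it has no tie to LHY in the files.

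**Figure D4:**
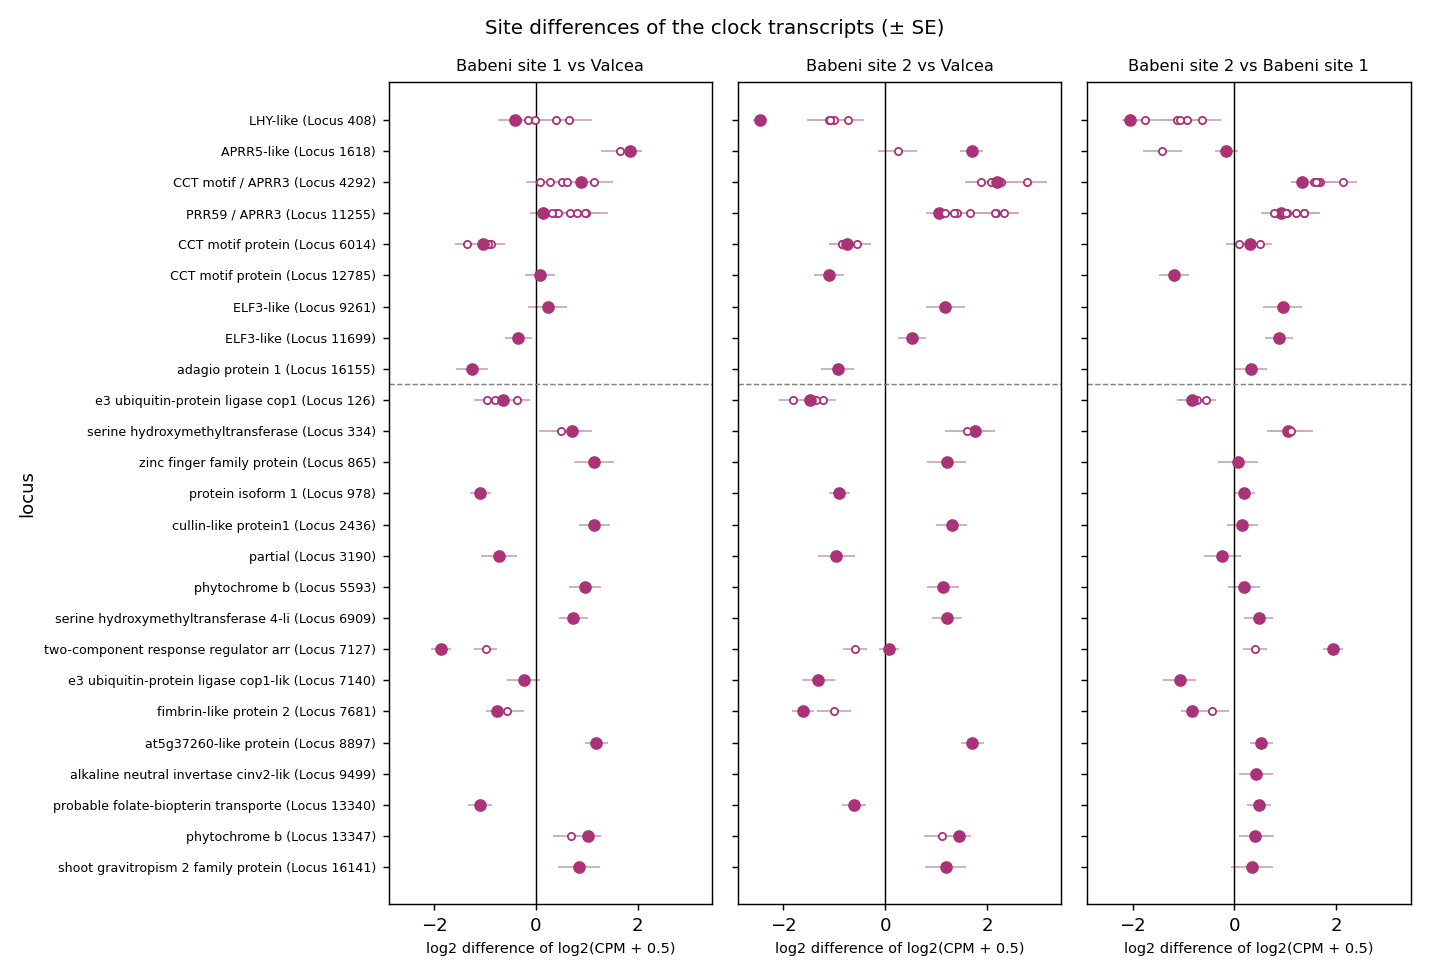
Log2 difference ± SE of each clock transcript for the 3 comparisons of sites, 1 row per locus, with the lead transcript filled and the others open; loci above the dashed line have a clock word in the description. LHY lies at -2.46 for Babeni site 2 over Valcea and Locus_4292 at 2.20, and the arr9-like transcript at -1.87 for Babeni site 1 over Valcea; the invertase is left out of both Valcea panels because it had no read there.

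Lead clock transcripts were also ranked per kilobase, averaged over the 9 libraries. Among those of the 9 loci with a clock word in the description, the LHY-like one was highest, at 18.4 CPM per kb. The lead transcripts of Locus_6014 and Locus_4292 followed at 5.85 and 4.44 CPM per kb, after the aprr5-like one. The ELF3-like transcripts stood at 1.89 and 1.11 CPM per kb and the adagio transcript at 1.10 CPM per kb. This ranking is of lead clock transcripts and not of loci. Summed over the locus, aprr5-like Locus_1618 had 33.3, 99.0 and 90.6 CPM from Valcea to Babeni site 2. The LHY locus had 104.7, 84.1 and 21.7 CPM, and the adagio locus 57.2, 37.0 and 37.6 CPM. Of the annotation matches, COP1 Locus_126_Transcript_8_9_ stood at 18.1 CPM per kb, and the 165-base cullin-like transcript at 25.8 CPM per kb.

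Among described transcripts outside the clock set, the 5 whose log2(CPM + 0.5) followed the LHY-like lead transcript most closely over the 9 libraries had Pearson r of 0.991 to 0.994. They were a plastid-lipid-associated protein 2 (Locus_8988_Transcript_4_6_, 6.94 ± 2.16, 5.61 ± 1.53 and 0.548 ± 0.101 CPM from Valcea to Babeni site 2), 2 transcripts of a heat shock protein 70 locus, an uncharacterised protein (Locus_101_Transcript_12_14_) and a transcript described as protein binding (Locus_1328_Transcript_6_8_). The more abundant of the HSP70 transcripts, Locus_1034_Transcript_31_36_, stood at 132.8 ± 8.71, 80.3 ± 6.85 and 7.91 ± 0.313 CPM. For the aprr5-like lead transcript the 5 closest had r of 0.978 to 0.990. They were described as rgpr (Locus_705_Transcript_6_7_, 30.8 ± 4.89, 74.5 ± 9.03 and 70.7 ± 5.50 CPM), a rad21 rec8-like protein (Locus_9981_Transcript_1_1_), a GYF domain protein, a ubiquitin carboxyl-terminal hydrolase 23-like and a cyclophilin-type isomerase. The 9 libraries fall into 3 sites, so these values describe a shared site pattern and carry no test.

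Lists of neighbouring functions were matched in the same descriptions, with the clock transcripts left out. They too hold only transcripts that the authors listed as changed between these libraries, so their counts are not independent evidence of a direction. Transcripts of a locus share reads here as well. The 23 described light perception and signalling transcripts come from 12 loci, the 22 photoperiod and flowering ones from 16 and the 29 antenna ones from 14. Of 22 tested light perception and signalling transcripts, 16 were called lower (6.09% of all) and 1 higher (6.00% of all) for Babeni site 2 over Valcea. For Babeni site 2 over site 1, 12 were called lower (1.63% of all) and 0 higher (1.55% of all). The median log2 differences were -1.67 and -1.16, where the medians of all transcripts were 0.05 and 0.02. For Babeni site 1 over Valcea 4 were called higher and 3 lower (4.17% and 4.90% of all). Without Babeni site 1 replicate 1 or 3 the 4 became 2. The 1 called higher at Babeni site 2 became 2 without Valcea replicate 2 and 0 without Babeni site 2 replicate 1 or 2. A SPA1-related 3-like protein, a partner of COP1, had 53.6, 58.7 and 82.6 CPM at Valcea, 39.1, 43.1 and 38.7 at Babeni site 1 and 19.2, 17.6 and 16.3 at Babeni site 2 (Locus_3617_Transcript_18_19_). Its sites were apart in the same order as those of COP1 and LHY, and it fell by 1.82 ± 0.16 on the log2 scale from Valcea to Babeni site 2. A cop1-like transcript outside the clock set, Locus_14998_Transcript_3_4_, fell by 1.20 ± 0.18 between the same sites, from 39.5 ± 4.32 to 16.8 ± 1.21 CPM.

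Of 22 photoperiod and flowering transcripts, 11 were called lower, 0 higher and 11 were not called for Babeni site 2 over site 1, where 1.63% of all transcripts were called lower, with a median log2 difference of -1.20, and without Babeni site 1 replicate 1 or 2 the 0 became 1. For Babeni site 2 over Valcea 9 were called lower and 2 higher (6.09% and 6.00% of all). For Babeni site 1 over Valcea 6 were called higher and 0 lower (4.17% and 4.90% of all). The 2 called higher at Babeni site 2 were 6 without Valcea replicate 2, 4 without Valcea replicate 3 and 1 without Babeni site 2 replicate 1. A B-box zinc finger protein, of the family of CONSTANS, had 49.6, 54.2 and 42.1 CPM at Valcea, 42.1, 44.7 and 50.1 at Babeni site 1 and 8.89, 7.01 and 8.37 at Babeni site 2 (Locus_5544_Transcript_1_1_). Babeni site 2 lay far below the other sites, which overlapped, and its log2 difference over Valcea was -2.52 ± 0.15. A CONSTANS-like 16-like transcript, Locus_4720_Transcript_2_2_, averaged 29.8 ± 3.04, 40.4 ± 2.63 and 18.6 ± 1.42 CPM from Valcea to Babeni site 2, and was called lower between the Babeni sites.

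Antenna transcripts belong to the clock-gated genes of leaves in Arabidopsis. Of 29, 10 were called higher and 1 lower for Babeni site 1 over Valcea (4.17% and 4.90% of all). For Babeni site 2 over Valcea 1 was called higher and 2 lower (6.00% and 6.09% of all). Between Babeni site 2 and site 1, 0 were called higher and 21 lower (1.55% and 1.63% of all). The median log2 differences were 0.78, -0.42 and -1.14 in that order. Without Valcea replicate 2, Valcea replicate 3 or Babeni site 1 replicate 1 the 1 called lower at Babeni site 1 became 0, and without Babeni site 2 replicate 2 the 2 became 1. A type III antenna protein of photosystem II, Locus_303_Transcript_12_13_, averaged 473.4 ± 65.1, 748.4 ± 14.0 and 359.7 ± 9.98 CPM. Of 5 clock accessory transcripts (casein kinase and jumonji types), 3 were called higher for Babeni site 1 over Valcea (4.17% of all). Without Babeni site 1 replicate 2 the 3 became 1. The jumonji domain factor Locus_13885_Transcript_1_1_ averaged 10.4 ± 2.08, 21.5 ± 2.11 and 18.3 ± 3.52 CPM. Of 3 glycine-rich RNA-binding proteins 2 were called higher for Babeni site 2 over Valcea (6.00% of all), and 1 without Babeni site 2 replicate 2 or 3. For Babeni site 1 over Valcea 1 was called higher and 1 lower (4.17% and 4.90% of all). The former count fell to 0 when either replicate 1 of Valcea or replicate 3 of Babeni site 1 was left out, and the latter when replicate 2 of Babeni site 1 was. Called lower was Locus_3173_Transcript_2_7_, which averaged 3.23 ± 0.0731, 1.27 ± 0.283 and 2.27 ± 0.709 CPM, with log2 differences over Valcea of -1.09 ± 0.29 at Babeni site 1 and -0.46 ± 0.29 at Babeni site 2. Locus_857_Transcript_1_3_ averaged 2.63 ± 0.320, 3.65 ± 0.340 and 6.21 ± 1.12 CPM.

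The choice of the 54 transcripts rests on the authors' deposited tables, which list 43 of them for Babeni site 2 against Valcea, 23 for the Babeni sites and 15 for Babeni site 1 against Valcea, where 15.0%, 4.89% and 10.7% of all transcripts are listed. Each of the 54 stands in 1 table (27 transcripts) or in 2 (27 transcripts), and none in all 3. In the authors' deposited tables the smallest absolute log2 fold changes of the clock transcripts are 1.04, 1.01 and 1.04 in the same order of comparisons. These are close to the 2-fold limit in the table titles. Just outside, among transcripts of the same loci that a table does not list, the nearest had a log2 difference of 1.06 ± 0.34 for Babeni site 2 over Valcea (Locus_2436_Transcript_23_30_), 1.05 ± 0.39 for Babeni site 1 over Valcea (Locus_865_Transcript_15_16_) and -0.79 ± 0.36 for Babeni site 2 over site 1 (Locus_408_Transcript_37_41_).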

How the data were processed

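Stranded mRNA libraries of Elodea nuttallii shoots (TruSeq kit and TRI-Reagent, per the labels) were read as 9 columns of 1 table. The authors deposited this table as a signal named edgeR CPM per the file headers, in which each library has a scale of its own (sums of 903669 to 1141739). The plan assumed plain CPM; the planned test was kept. The authors deposited tables of their comparisons that per the file headers hold a log2 fold change, a log2 mean CPM, a p-value and an FDR for each transcript. Named with no roles in the submitters' processing notes are edgeR 3.4.2, HTSeq 0.5.3p9, TopHat2 2.0.11 and BWA 0.7.10; the genome, annotation and use of strand in counting are not given in the sources used here.

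Divided by the value of 1 read, 100% of values lay within 0.01 of a whole number, so reads were recovered. In R 4.3.3, limma 3.58.1 (trend option) was fitted without covariates on log2(CPM + 0.5) of the 56752 transcripts that reached 1 CPM in 3 or more of 9 libraries; all 54 clock transcripts passed. A call is a Benjamini-Hochberg adjusted p under 0.05 and at least a 2-fold difference. The code was tested on simulated data. EdgeR 4.0.16 on recovered reads called 4954, 7507 and 2191 transcripts against 5151, 6861 and 1805 by limma, for Babeni site 1 over Valcea, Babeni site 2 over Valcea and Babeni site 2 over site 1.

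Per-library values are given for the lead transcript of each locus in full where results turn on it, otherwise as site means; the 5 closest transcripts to 2 leads and up to 2 transcripts per list were named by rule, and further ones after their values were seen. The members and lists were chosen with earlier results of these data known. Alternatives were other pseudocounts (0.1 and 2), other filters, median centring, edgeR, the replicate block, sums per locus and each library left out. Algal samples were not analysed here, since nothing pairs their identifiers with names.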

Additional observations from a re-analysis of the deposited data

How the results depend on the processing

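The counts of called clock transcripts depended on how low values were handled. With a pseudocount of 2 the counts called higher and lower were 1 and 2 for Babeni site 1 over Valcea, 13 and 6 for Babeni site 2 over Valcea, and for Babeni site 2 over site 1 the 5 called lower became 1. With a filter of at least 5 CPM in 3 libraries 10 were higher and 7 lower for Babeni site 2 over Valcea and 1 was lower between the Babeni sites. Over all transcripts the pseudocount of 2 left 2069, 3313 and 1054 calls in the 3 comparisons and that filter 2436, 3308 and 1104, where the main counts were 5151, 6861 and 1805. Leaving out each library gave 4 to 10 higher and 4 to 8 lower for Babeni site 1 over Valcea, 21 to 26 and 8 to 12 for Babeni site 2 over Valcea, and 5 to 10 and 1 to 5 between the Babeni sites. EdgeR on recovered reads gave 6 and 9, 26 and 15, and 11 and 5 in the same order, each within 1.5 times.

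Of 447 alternative values of the log2 differences of 9 lead transcripts, 429 moved by less than 1 replicate SD, 18 moved by more (12 of them in sums per locus), and 7 had the other sign. The 7 belong to 5 differences, none of them called: Locus_1618_Transcript_7_10_ between the Babeni sites (-0.16, and 0.02 without Babeni site 1 replicate 2) and, for Babeni site 1 over Valcea, the lead transcripts of Locus_9261, Locus_11255, Locus_11699 and Locus_12785. The cause was not tested. With the replicate number as a block, 3 in place of 5 were called lower between the Babeni sites, and the other 5 counts stayed within 1.5 times. Same-numbered libraries deviated together by correlations of only -0.156 to 0.058. These numbers are those of the sample titles, and the submitters' own sample names number the libraries differently. Neither the correlations nor the block can therefore show whether libraries of different sites were paired. The planned algal comparisons were not run. Depth limits the rare transcripts: 3 reads amount to 0.351 to 1.19 CPM.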
